A study of Callithrix jacchus with 4 samples.

Results

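The mitochondrial solute carriers form the SLC25 family of membrane transporters, which includes the uncoupling proteins UCP1, UCP2 and UCP3. Members were the genes whose only symbol in the platform annotation was SLC25A and a number, or one of the 3 UCP symbols. The rule found 45 of the 18014 genes measured, read by 71 array features. The marmoset gene table used for names (assembly calJac240_pri) lists 43 of the 45, all but SLC25A2 and SLC25A52.

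RNA came from the substantia nigra pars compacta, the midbrain nucleus of dopamine neurons, of 5 male common marmosets aged 3 years and weighing 350 to 400 g. Of these, 4 received 1 intravenous dose of 2.5 mg/kg MPTP under pentobarbital and were killed after 2 h, after 6 h, after 1 day and after 14 days, 1 animal each, and 1 received intravenous vehicle. When the vehicle animal was killed is not given in the sources used here. A strip of the nucleus from 1 side, cut by laser from 2 slides, was amplified in 2 rounds, and each MPTP sample (Cy5) was hybridised with the same vehicle animal's RNA (Cy3) on a human whole-genome array. Per the design text the dose leaves animals immobile for a day, and a cut strip can hold glia and vessels besides neurons.

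Most SLC25 proteins sit in the inner mitochondrial membrane and exchange nucleotides, phosphate, organic acids, amino acids and cofactors between cytosol and matrix. The ADP/ATP carriers export the ATP made by oxidative phosphorylation, and the aspartate/glutamate and oxoglutarate carriers form the malate-aspartate shuttle, which moves reducing equivalents into neuronal mitochondria. Uncoupling proteins, in the case of UCP1, let protons back across the membrane. MPTP is converted to MPP+, which dopamine neurons take up and which blocks complex I of the respiratory chain in the same membrane.

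Values below are log2 ratios of MPTP over vehicle, each array being centred on the median of its features, and genes with several features are given by their median. The table states neither scale nor direction: values were read as log10 ratios of Cy5 over Cy3 from their form and the dyes in the labels, and if the ratio ran the other way every sign would turn. With 1 animal per time there was no replicate and no test, so "at least 2-fold" (a log2 ratio of 1 or more in size) describes a pair of animals. Where a gene has an SD, it is that between its array features. All 4 ratios share the vehicle animal, so a value of the same sign on all arrays may come from that animal alone. Fewer cells of a type and less RNA per cell cannot be told apart in such tissue. The table gives no spot intensities, so whether a transcript was above background is unknown.

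As a family the carriers did not stand on one side of vehicle. Their median was −0.041 after 2 h, 0.048 after 6 h, 0.036 after 1 day and 0 after 14 days, against 0.027, 0.029, 0.015 and 0.0095 over all genes. The 0 after 14 days came from SLC25A30 and SLC25A48, whose only features were listed at exactly 0 there, possibly because no ratio was estimated. With exact zeros taken as not measured, the median after 14 days was −0.029. At the other times the median kept its sign. At 2 h, 4 of 45 (8.89%) were at least 2-fold higher, where 5.47% of all genes were, and 5 (11.1%) at least 2-fold lower, where 7.22% were. At 6 h, 4 were higher (8.89%, background 3.37%) and 1 lower (2.22%, background 3.89%). At 1 day, 1 was higher (2.22%, background 2.27%) and 2 lower (4.44%, background 1.67%). At 14 days, 1 was higher (2.22%, background 2.16%) and none lower (background 2.12%). With counts of 0 to 5 members, a single gene moves each share by 2.22 percentage points.

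**Figure D1:**
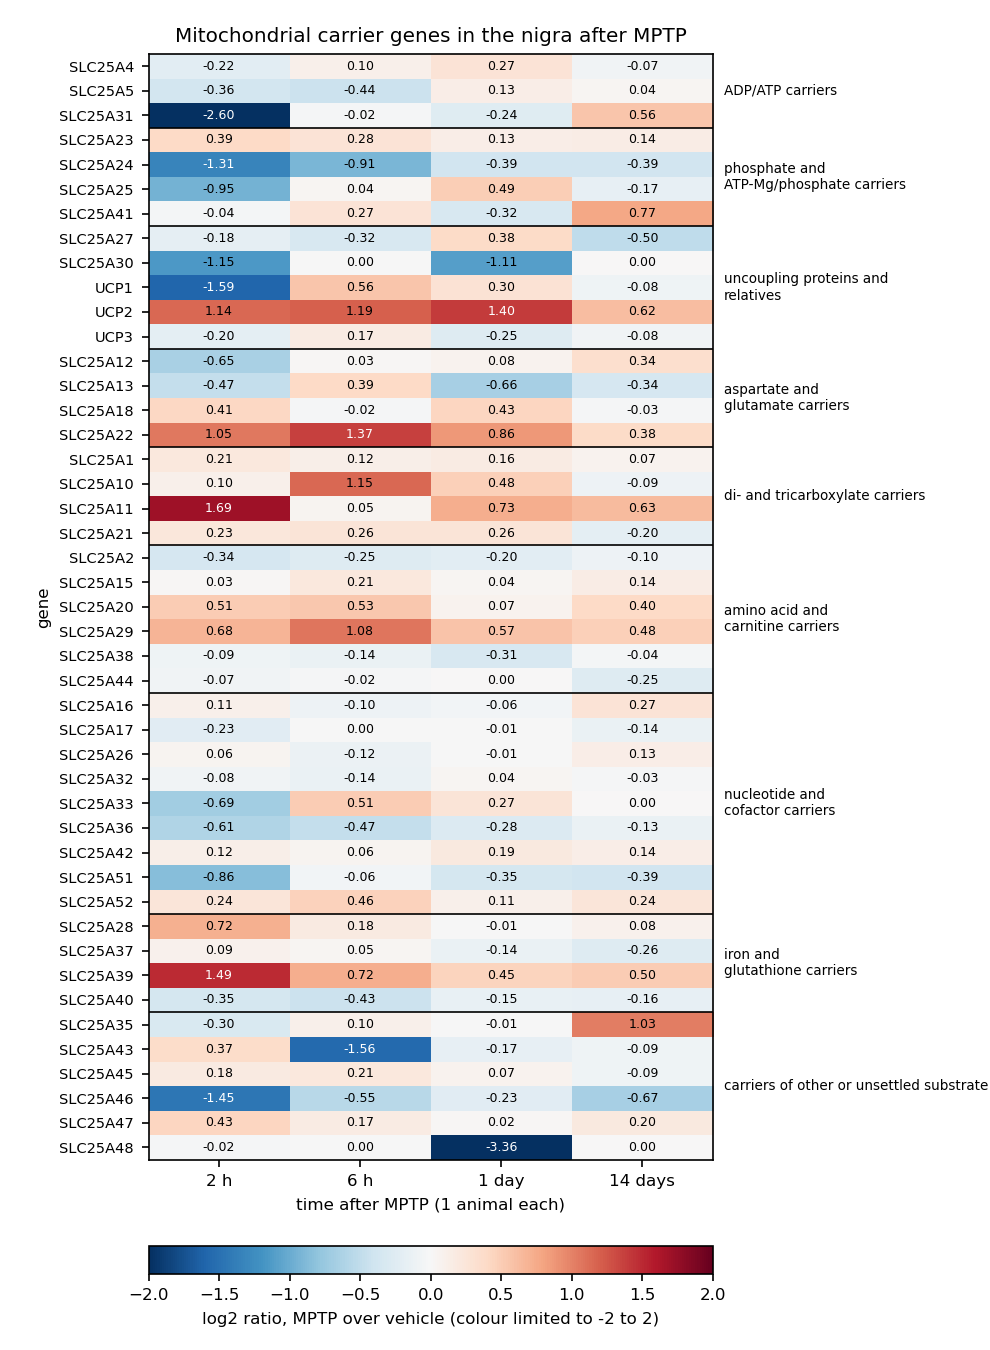
Log2 ratio of MPTP over vehicle (colour and number) of each of the 45 carrier genes (rows, ordered by what they carry) at 4 times after MPTP (columns, 1 animal each). UCP2, SLC25A22, SLC25A29 and SLC25A39 are above 0 in every column, and SLC25A24 and SLC25A46 below 0 in every column.

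In all, 14 members (31.1%) were at least 2-fold from vehicle on 1 or more arrays, where 20.5% of all genes were. UCP2 was so on 3 arrays, SLC25A22 and SLC25A30 on 2, and the other 11 on 1. Of these 14, 12 were read by a single feature. Among the 28 members with 1 feature 12 (42.9%) were at least 2-fold from vehicle somewhere, against 26.3% of the 10603 such genes, and among the 17 members with 2 or more features 2 (11.8%) were, against 12.2% of 7411. The other end of the family was flat: 21 members (46.7%) stayed within 0.5 of vehicle on all 4 arrays, as did 44.8% of all genes, among them SLC25A4 and SLC25A5, SLC25A1 and SLC25A23.

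**Figure D2:**
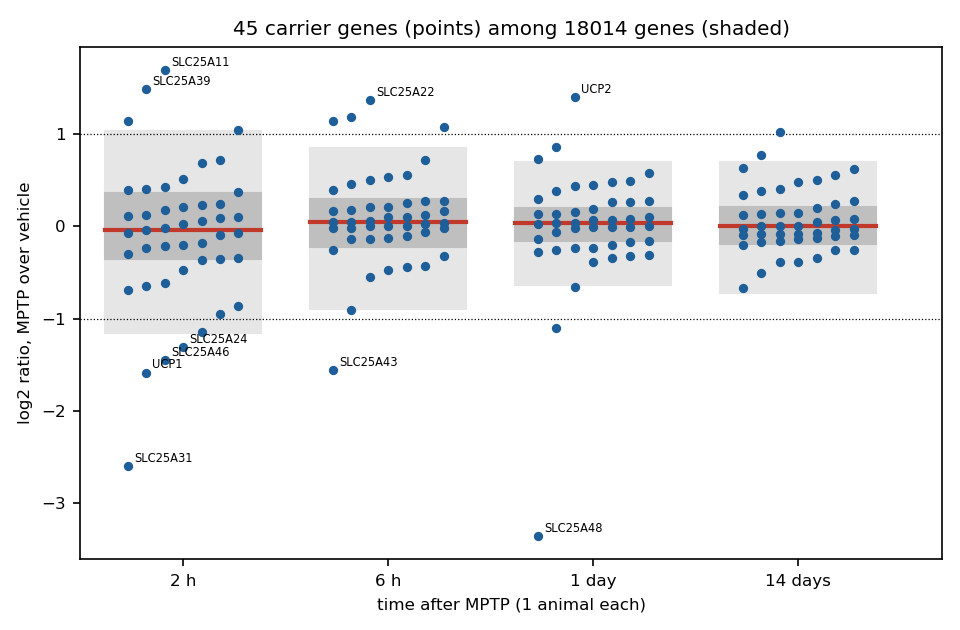
Log2 ratio of MPTP over vehicle (vertical axis) of the 45 carrier genes (points) at 4 times after MPTP (horizontal axis, 1 animal each), over the range of all 18014 genes (dark band, percentiles 25 to 75; light band, percentiles 5 to 95). Red lines mark the carrier median, dotted lines a 2-fold difference, and SLC25A31 after 2 h (−2.60) and SLC25A48 after 1 day (−3.36) lie farthest out.

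Of the ADP/ATP carriers, the heart and muscle form SLC25A4 (ANT1) and the widespread form SLC25A5 (ANT2) stayed within 1.35-fold of vehicle. SLC25A4 lay at −0.22 after 2 h, 0.10 after 6 h, 0.27 after 1 day and −0.073 after 14 days. SLC25A5, the member with the most features, lay at −0.36 ± 0.22 after 2 h, −0.44 ± 0.19 after 6 h, 0.13 ± 0.09 after 1 day and 0.04 ± 0.30 after 14 days (SD, 5 features). Its features agreed on the side at 6 h, with 5 of 5 below 0 (−0.56 to −0.10), and at 1 day, with 5 of 5 above 0 (0.06 to 0.30). At 2 h 4 of 5 were below 0, and at 14 days 2 of 5 were. ADP/ATP carriers are close in sequence and have many processed copies, so hybridisation between them cannot be told apart here. SLC25A31 (ANT4), the form of testis, lay at −2.60 after 2 h (6.06-fold lower), −0.021 after 6 h, −0.24 after 1 day and 0.56 after 14 days, from 1 feature. The 2 h value was rank 33 from the lowest of all genes on that array, and the 14 days value lay on the other side of vehicle.

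The carriers of ATP-Mg and phosphate, which set the matrix pool of adenine nucleotides in response to calcium, differed among themselves. SLC25A24 (SCaMC-1) lay below vehicle on every array, at −1.31 after 2 h (2.49-fold lower), −0.91 after 6 h, −0.39 after 1 day and −0.39 after 14 days, from 1 feature. Its relative SLC25A23 (SCaMC-3) lay above vehicle on every array, at 0.39 ± 0.31, 0.28 ± 0.15, 0.13 ± 0.11 and 0.14 ± 0.78 from 2 h to 14 days (SD, 3 features). At 14 days 1 of these 3 features lay at 1.44 and the others at 0.04 and 0.15. SLC25A25 (SCaMC-2) lay at −0.95 ± 1.02, 0.04 ± 0.06, 0.49 ± 0.70 and −0.17 ± 1.74 over 2 features, which lay at −1.40 and 1.06 after 14 days, so its median there stands for neither. 1 of the 2 was listed at exactly 0 at 6 h and 1 day, and without such zeros the values there were 0.084 and 0.98. SLC25A41, the form without calcium-binding domains, lay at −0.041, 0.27, −0.32 and 0.77. In the marmoset gene order SLC25A41 and SLC25A23 are next to each other, with no other protein-coding gene between them.

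Of the uncoupling proteins, UCP2 lay above vehicle on every array and further than any other carrier on average. UCP2 is found in many tissues, immune cells included, and is studied for limiting the production of reactive oxygen species. Its log2 ratio was 1.14 after 2 h (2.21-fold), 1.19 after 6 h (2.28-fold), 1.40 after 1 day (2.65-fold) and 0.62 after 14 days (1.54-fold), from 1 feature. It ranked 712 from the highest of all genes at 2 h, 375 after 6 h, 152 after 1 day and 1119 after 14 days. Its smallest value, 0.62, was passed by the smallest value of 161 other genes among those above 0 on all 4 arrays. With the vehicle term removed, UCP2 after 14 days was 0.78 below 1 day, 0.57 below 6 h and 0.52 below 2 h. The microglial markers beside it had medians over 7 genes of −0.24, 0.42, −0.28 and 0.27, with 3, 4, 3 and 4 of 7 above 0, and their part in the UCP2 values was not tested.

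Neither UCP3 nor UCP1 followed UCP2. UCP3, the muscle form and the neighbour of UCP2 in the marmoset gene order, lay at −0.20 ± 1.83 after 2 h over 2 features, which were opposed at −1.49 and 1.09. Its later values were 0.17 ± 0.24, −0.25 ± 0.39 and −0.08 ± 0.66, the first of them 0.34 without a feature listed at exactly 0. UCP1, the proton channel of brown fat, lay at −1.59 after 2 h (3.00-fold lower), 0.56 after 6 h, 0.30 after 1 day and −0.083 after 14 days, from 1 feature. The brain-enriched relative SLC25A27 (UCP4) lay at −0.18 ± 0.01, −0.32 ± 0.08, 0.38 ± 0.47 and −0.50 ± 0.36 (SD, 2 features), so it stood above vehicle at 1 day and below it at the other times. SLC25A30 (KMCP1) lay at −1.15 after 2 h and −1.11 after 1 day, and its single feature was listed at exactly 0 after 6 h and 14 days. An exact 0 in this table may be a ratio that was not estimated, so no level is read from those arrays.

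**Figure D3:**
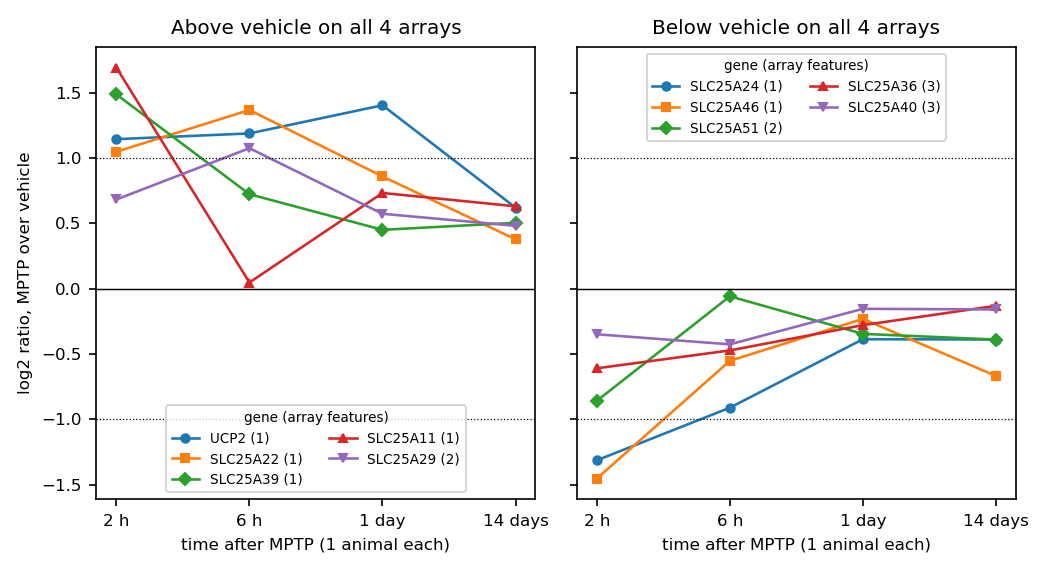
Log2 ratio of MPTP over vehicle (vertical axis) at 4 times after MPTP (horizontal axis, 1 animal each, lines only join the points of a gene) for the 5 carriers with the highest mean among those above 0 on all arrays (left) and the 5 with the lowest mean among those below 0 on all arrays (right). UCP2 stays between 0.62 and 1.40, while SLC25A24 and SLC25A46 lie farthest below vehicle at 2 h; dotted lines mark a 2-fold difference.

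Among the carriers of aspartate and glutamate, SLC25A22 stood above vehicle on every array. SLC25A22 (GC1) takes glutamate into mitochondria with a proton, and in humans its loss causes early epileptic encephalopathy. It lay at 1.05 after 2 h (2.07-fold), 1.37 after 6 h (2.58-fold), 0.86 after 1 day (1.81-fold) and 0.38 after 14 days (1.30-fold), from 1 feature. The 14 days value was 0.99 below that at 6 h and 0.67 below that at 2 h. Its partner SLC25A18 (GC2), an astrocyte-enriched glutamate carrier, lay at 0.41, −0.022, 0.43 and −0.029, while astrocyte markers had medians over 8 genes of −0.52, −0.39, −0.051 and 0.012, with 1, 2, 3 and 4 of 8 above 0.

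The aspartate/glutamate carriers of the malate-aspartate shuttle gave no single direction. SLC25A12 (aralar), the neuronal form, lay at −0.65 ± 0.87 after 2 h, 0.028 ± 0.58 after 6 h, 0.08 ± 0.50 after 1 day and 0.34 ± 0.92 after 14 days over 2 features. Both features lay below 0 after 2 h and 1 of 2 at the other times, and their SD was larger than the distance from vehicle on all arrays. SLC25A13 (citrin), the liver form, lay at −0.47 ± 0.32, 0.39 ± 0.76, −0.66 ± 0.03 and −0.34 ± 0.56. Its features agreed at 1 day, at −0.64 and −0.68.

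The di- and tricarboxylate carriers lay above vehicle up to 1 day: 4 of 4 were above 0 after 2 h, 6 h and 1 day, and 2 of 4 after 14 days. Of all genes 52.1%, 53.2%, 52.3% and 51.3% were above 0 at these times, and 4 genes that share 1 vehicle animal say little against such shares. The group median was 0.22, 0.19, 0.37 and −0.014, beside 0.027, 0.029, 0.015 and 0.0095 over all genes. SLC25A11, the oxoglutarate/malate carrier that completes the malate-aspartate shuttle and is also linked to mitochondrial glutathione, lay at 1.69 after 2 h (3.23-fold), 0.048 after 6 h, 0.73 after 1 day (1.66-fold) and 0.63 after 14 days (1.55-fold). SLC25A10, the dicarboxylate carrier, lay at 0.10, 1.15 (2.21-fold), 0.48 and −0.094. The citrate carrier SLC25A1, which feeds fatty acid synthesis, lay at 0.21, 0.12, 0.16 and 0.065, and SLC25A21, the oxodicarboxylate carrier, at 0.23, 0.26, 0.26 and −0.20. Each of these 4 was read by 1 feature, so the group rests on 4 features. Of the whole family SLC25A11 had the highest value at 2 h, and at 6 h it lay close to vehicle.

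In the group of amino acid and carnitine carriers, SLC25A29 had the highest values at every time and was the only member with more than 1 feature. SLC25A29 carries arginine, lysine and other basic amino acids, and lay at 0.68 ± 0.27 after 2 h (1.61-fold), 1.08 ± 0.16 after 6 h (2.11-fold), 0.57 ± 0.01 after 1 day (1.49-fold) and 0.48 ± 0.18 after 14 days (1.40-fold; SD, 2 features). Both features were above 0 on all arrays, between 0.35 and 1.19. Its neighbour in the marmoset gene order, SLC25A47, a liver carrier, lay at 0.43, 0.17, 0.025 and 0.20. SLC25A20, the carnitine/acylcarnitine carrier that brings fatty acids to oxidation, lay at 0.51, 0.53, 0.074 and 0.40. The ornithine carriers of the urea cycle stayed near vehicle, SLC25A15 at 0.025 to 0.21 and SLC25A2 at −0.34 to −0.10. The glycine carrier SLC25A38, needed for haem synthesis, lay between −0.31 and −0.044, and SLC25A44, a carrier of branched-chain amino acids, between −0.25 and 0.0037.

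Of the 9 nucleotide and cofactor carriers 0 were at least 2-fold from vehicle on any array, where 20.5% of all genes were, and so few genes say little against that share. The group had medians of −0.077, −0.058, −0.0099 and 0.00054 over 9 genes. SLC25A36, a carrier of pyrimidine nucleotides, lay below vehicle on every array, at −0.61 ± 0.41, −0.47 ± 0.07, −0.28 ± 0.24 and −0.13 ± 0.27 (SD, 3 features), with 3 of 3 features below 0 after 2 h, 6 h and 14 days and 2 of 3 after 1 day. SLC25A33, which shares that substrate, lay at −0.69, 0.51, 0.27 and 0.00054. The NAD carrier SLC25A51 lay at −0.86 ± 0.67, −0.058 ± 0.28, −0.35 ± 0.26 and −0.39 ± 0.51 (SD, 2 features), and its primate copy SLC25A52 at 0.24, 0.46, 0.11 and 0.24. As SLC25A52 is not in the marmoset gene table used here, which transcript its human probe read is unknown. SLC25A42 of coenzyme A, SLC25A16, linked to the same cofactor, SLC25A17 of peroxisomes, SLC25A26 of S-adenosylmethionine and SLC25A32 of folate and FAD all stayed between −0.23 and 0.27.

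Among the iron and glutathione carriers, the glutathione pair lay on opposite sides of vehicle on every array. SLC25A39, a glutathione importer, lay at 1.49 after 2 h (2.80-fold), 0.72 after 6 h (1.65-fold), 0.45 after 1 day and 0.50 after 14 days, from 1 feature. SLC25A40, its close relative with the same substrate, lay below vehicle on every array at −0.35 ± 0.38, −0.43 ± 0.32, −0.15 ± 0.26 and −0.16 ± 0.28 (SD, 3 features). The distance of SLC25A40 from vehicle was below its SD over features at 2 h, 1 day and 14 days, and at 6 h 3 of 3 features were below 0. SLC25A28 (mitoferrin 2), the iron importer of most tissues, lay at 0.72 ± 0.43 after 2 h and at 0.18 ± 0.15, −0.0093 ± 0.05 and 0.08 ± 0.02 later. SLC25A37 (mitoferrin 1), the erythroid form, lay at 0.09 ± 0.74, 0.05 ± 0.08, −0.14 ± 0.55 and −0.26 ± 0.49 (SD, 4 features). At 2 h and 6 h 1 of these features was listed at exactly 0, and without it the values were 0.21 and 0.057. The features of the mitoferrins overlapped at 2 h, with 0.41 and 1.02 for SLC25A28 and −0.086 to 1.48 for SLC25A37. Erythroid markers beside these had medians over 7 genes of 0.72, −0.12, 0.45 and 0.97, with 6, 3, 6 and 6 of 7 above 0. The highest of them on each array was the globin gene HBA1, at 2.66, 1.31, 0.92 and 1.12, and the lowest values were −0.41, −0.43, −0.31 and −0.24. 1 feature of SLC25A37 lay at 1.48 after 2 h and 0.95 after 1 day, and the mean over its features was 0.40, 0.067, 0.12 and −0.43. The part of these markers in the SLC25A37 and SLC25A39 values was not tested.

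Among the carriers of other or unsettled substrate, SLC25A46 lay below vehicle on every array. SLC25A46 sits in the outer membrane, takes part in mitochondrial fission and lipid transfer, and is mutated in an optic atrophy with neuropathy. It lay at −1.45 after 2 h (2.74-fold lower), −0.55 after 6 h, −0.23 after 1 day and −0.67 after 14 days, from 1 feature. SLC25A35 was near vehicle until 1 day (−0.30, 0.10 and −0.011) and lay at 1.03 after 14 days, the only member at least 2-fold higher there. SLC25A43 lay at 0.37 ± 1.25, −1.56 ± 1.76, −0.17 ± 0.24 and −0.085 ± 0.53 over 2 features, and its 6 h value came from features at −2.80 and −0.32. At 1 day 1 of the 2 was listed at exactly 0, and without it the value was −0.34. SLC25A45 stayed between −0.090 and 0.21 over 3 features. SLC25A48 lay at −3.36 after 1 day (10.2-fold lower), but its only feature was listed at exactly 0 on the other 3 arrays, so the value has nothing to be set against.

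**Figure D4:**
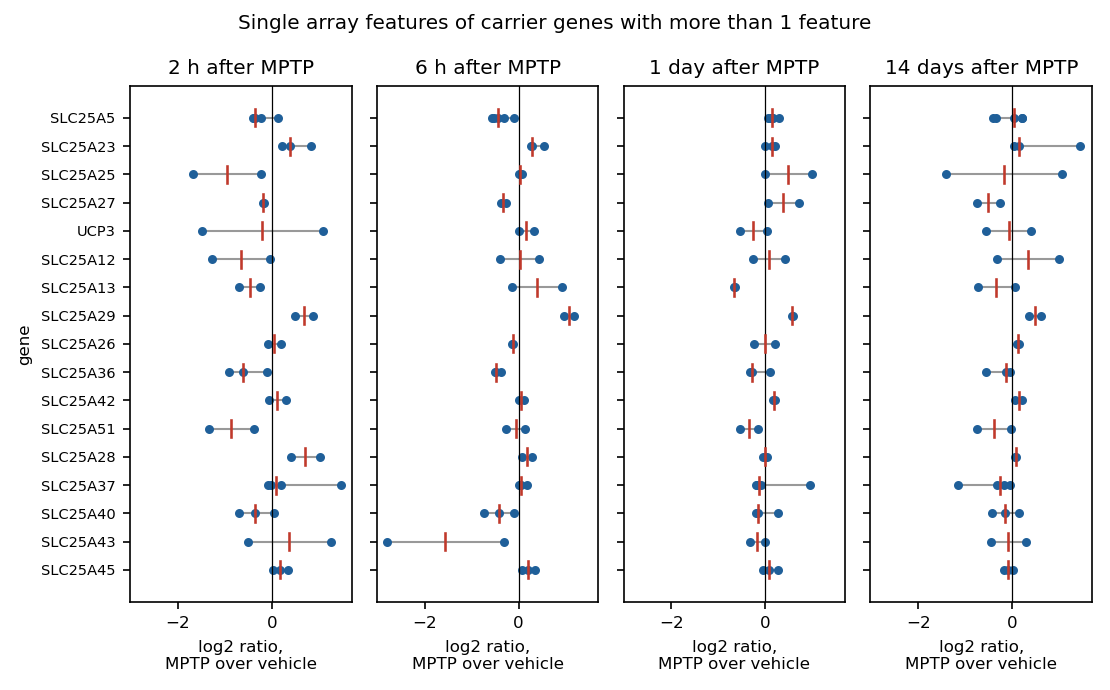
Single array features (points) of the 17 carriers with 2 or more features, as log2 ratio of MPTP over vehicle (horizontal axis) by gene (vertical axis) in 4 panels for the times after MPTP, 1 animal each, with the gene's median as a red bar and a grey line over the range. The 5 features of SLC25A5 lie on 1 side of 0 at 6 h and 1 day and on both sides at 2 h and 14 days, while those of UCP3 after 2 h, SLC25A43 after 6 h and SLC25A25 after 14 days lie over 2 apart.

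Agreement between features set how far the members could be read. Over the 17 members with 2 or more, the median SD between features was 0.38 after 2 h, 0.15 after 6 h, 0.24 after 1 day and 0.36 after 14 days, against 0.45, 0.34, 0.27 and 0.29 over the 7411 such genes. None of the 17 had all its features at least 2-fold on 1 side on any array, and of the 7411 genes 2.47% did. Features differed by 1 or more on at least 1 array for 7 of the 17: SLC25A12, SLC25A13, SLC25A23, SLC25A25, SLC25A37, SLC25A43 and UCP3. The share of the 7411 genes that did so was not computed, so whether 7 is many or few is unknown.

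Across the 4 arrays, 12 members (26.7%) were above 0 throughout, as were 23.5% of all genes, and 8 (17.8%) below 0 throughout, as were 18.5%. Of these 20, 5 had a smallest size of at least 0.3: UCP2, SLC25A29, SLC25A39 and SLC25A22 above vehicle (4 of 45, 8.89%, where 4.39% of all genes did so) and SLC25A24 below it (1 of 45, 2.22%, where 5.02% did so). Some of the others hardly left 0, as SLC25A17 with a smallest size of 0.00098.

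Subtracting one array from another removes the vehicle animal and sets 1 MPTP animal against another. With all values kept, 14 members (31.1%) differed at least 2-fold between some pair of arrays, where 21.2% of all genes did. SLC25A30 and SLC25A48 are among these 14 only through features listed at exactly 0. With exact zeros taken as not measured, 12 of 44 members (27.3%) differed so, against 21.7% of the 17766 genes with a value on at least 2 arrays. For a gene with several features, dropping zeros can leave different features behind its values on different arrays.

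At 6 h relative to 2 h, SLC25A31 (2.58), UCP1 (2.14), SLC25A33 (1.20) and SLC25A10 (1.05) were at least 2-fold higher, and SLC25A43 (−1.93) and SLC25A11 (−1.65) at least 2-fold lower. The 2 features of SLC25A43 went opposite ways, 1 from 1.26 at 2 h to −2.80 at 6 h and the other from −0.51 to −0.32. With all values kept SLC25A30 made 5 higher (11.1%, background 4.90%) and 2 lower (4.44%, background 3.98%). Without exact zeros SLC25A30 had no value in this difference and SLC25A25 (1.03) was the fifth. That 1.03 sets 1 feature at 6 h against the median of 2 at 2 h. The feature of SLC25A25 with a value on both arrays lay at −0.23 and 0.084, less than 2-fold apart. At 1 day relative to 6 h, SLC25A43 (1.39) was at least 2-fold higher (2.22%, background 3.59%) and SLC25A13 (−1.05) lower. The 1.39 rests on a feature at −2.80 after 6 h that was listed at exactly 0 after 1 day. Without exact zeros the value was 1.22, which sets 1 feature at 1 day against the median of 2 at 6 h. The feature of SLC25A43 with a value on both arrays lay at −0.32 and −0.34, so it gave no such rise. With all values kept SLC25A30 and SLC25A48 made 3 lower (6.67%, background 2.69%), and without exact zeros 1 was lower. The median difference over the family was 0.052 at 6 h relative to 2 h and −0.11 at 1 day relative to 6 h, against 0.0073 and −0.011 over all genes. The −0.11 became −0.0089 both with the mean over features and without exact zeros.

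At 14 days relative to 1 day, SLC25A41 (1.09) and SLC25A35 (1.04) were at least 2-fold higher. With all values kept SLC25A30 and SLC25A48 made 4 higher (8.89%, background 2.26%) and none was lower (background 2.53%). Without exact zeros 2 were higher and SLC25A25 (−1.15) was lower. That −1.15 sets 1 feature at 1 day against the median of 2 at 14 days. The feature with a value on both arrays lay at 0.98 and 1.06, so it gave no such fall. At 14 days relative to 2 h, SLC25A31 (3.16), UCP1 (1.5) and SLC25A35 (1.33) were higher and SLC25A11 (−1.06) lower (2.22%, background 4.33%). With all values kept SLC25A30 made 4 higher (8.89%, background 4.85%), and without exact zeros 3 were. The 2 h array had the widest spread, with an SD over all genes of 0.71 against 0.57, 0.48 and 0.47 later, and 9 of the 18 values at least 2-fold from vehicle came from it. The arrays were also scaled to the same median absolute deviation, namely the median of those of the single arrays. With that scaling 3 of these 9 remained, SLC25A11, SLC25A31 and UCP1, and UCP2 remained at 6 h and 1 day.

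Related mitochondrial genes were set beside the carriers. Other mitochondrial transporters had medians over 18 genes of 0.057, 0.0091, 0.086 and −0.022. None was at least 2-fold from vehicle at 2 h (background 5.47% higher, 7.22% lower) and 1 day (background 2.27% higher, 1.67% lower). SFXN2 (1.54, 1 feature) was higher after 6 h (5.56%, background 3.37%). MCU, the calcium uniporter pore (1.40, 1 feature), was higher at 14 days (5.56%, background 2.16%). So few genes say little against such shares. The pyruvate carrier subunit MPC1 lay at −0.89 after 2 h and MPC2 at 0.038. Genes that bring carriers into the inner membrane had medians over 10 genes of −0.043, −0.044, 0.060 and −0.18. Of the small chaperones that guide carriers across the space between the membranes, TIMM9 lay at −1.58, −0.79, −0.76 and −0.52 and TIMM10B at −1.49, −0.82, −0.60 and −0.68, below vehicle on every array. These 2 of the 10 import genes (20%) were read by 1 feature each, and 18.5% of all genes were below 0 throughout. TIMM13 lay at 1.09, −0.13, 0.42 and 0.41. TIMM8A lay at 0.43 ± 0.51, 0.48 ± 0.72, 0.67 ± 0.99 and 0.59 ± 0.86 (SD, 2 features), so its SD was larger than its distance from vehicle on every array. TIMM9's partner TIMM10 lay at 0.33, 0.27, 0.09 and −0.37, on the other side of vehicle from TIMM9 until 1 day.

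Subunits of complex I, the target of MPP+, had medians over 36 genes of −0.16, 0.0055, 0.12 and 0.048, and mitochondrial ribosomal proteins over 73 genes −0.078, 0.088, 0.12 and −0.0027. At 1 day 29 of 36 complex I subunits (80.6%) and 50 of 73 ribosomal proteins (68.5%) lay above 0, against 25 of 45 carriers (55.6%) and 52.3% of all genes. The difference between these lists was not tested.

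**Figure D5:**
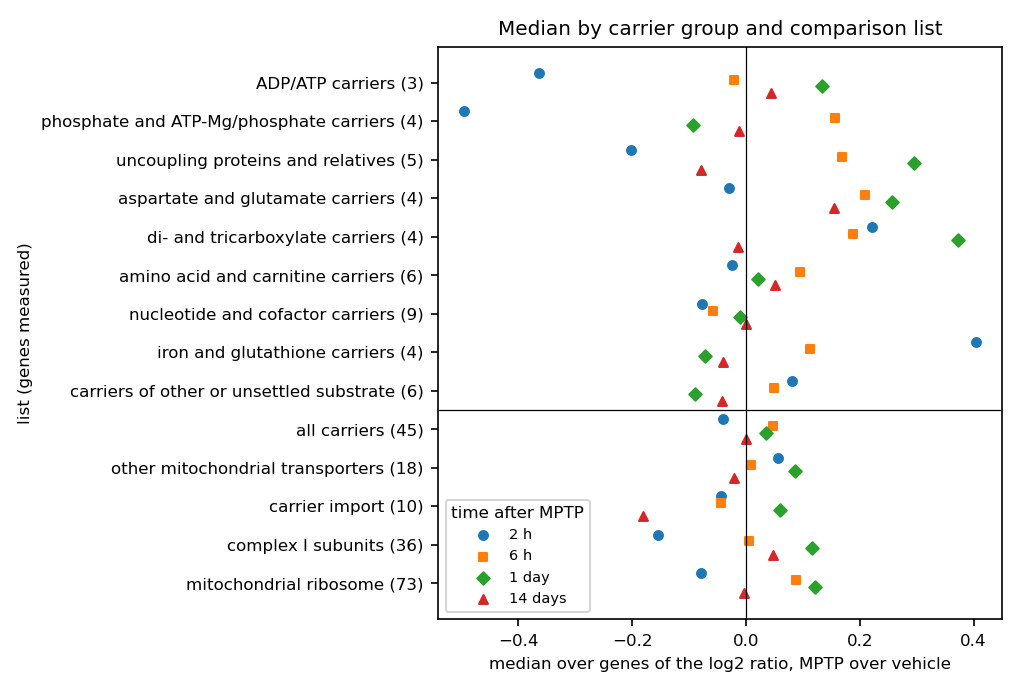
Median over genes of the log2 ratio of MPTP over vehicle (horizontal axis) for 9 groups of carriers, all 45 carriers and 4 lists of related mitochondrial genes (vertical axis, number of genes measured in brackets), with 1 marker shape for each time after MPTP. The carrier family as a whole stays within 0.05 of 0, while groups of 3 to 5 genes spread between −0.50 and 0.40.

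The labelled tissue could be checked only through ratios. Markers of dopamine neurons had medians over 12 genes of 0.26, 0.22, 0.21 and 0.13, with 8, 11, 7 and 10 of 12 above 0, and the defining marker SLC6A3 was listed at exactly 0 on all arrays. Markers of GABA neurons had medians over 5 genes of −0.26, −0.82, −0.63 and −0.78, with 2, 1, 1 and 0 above 0. Oligodendrocyte markers had medians over 6 genes of −0.52, −0.10, −0.26 and 0.085, with 2, 3, 2 and 4 above 0, and vessel markers over 7 genes of 0.18, 0.41, 0.34 and 0.43, with 5, 6, 5 and 6 above 0. These marker ratios differed between the arrays, and their part in the carrier values was not tested.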

How the data were processed

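The deposited table gave 1 value for each of 43931 features on each of 4 two-colour arrays, 1 per time after MPTP. Per the labels' protocols, RNA was amplified in 2 rounds and labelled with Cy5 (MPTP) or Cy3 (vehicle). Values were read as log10 ratios made by the authors: the deposited log10 columns had medians of 0.00633, 0.000146, 0.000277 and 0 and no value over 2 in size, and 4.70% to 7.38% of values were exactly 0. Scale and direction are inferred. The scanner software and any background correction or normalization were not given in the sources used here. Of 71 member features, 2 to 5 per array were exactly 0.

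Values were multiplied by log2 of 10 and centred on each array's median. Gene symbols came from the platform annotation: 29033 features had 1 symbol, 97 several and 14801 none here. The number of arrays limits the precision. No test was run. A gene counted as higher or lower at 2-fold. The carrier groups, comparison lists, markers and members were chosen with earlier results of these data known.

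Named by rule were members at least 2-fold from vehicle or between arrays, those of 1 sign on all arrays with a smallest size of 0.3, those with features 1 apart, and 16 always given, 27 in all; the other members are given as values or ranges. The step from features to genes was run on shuffled feature values with known differences added to 200 genes. A median recovers such differences by construction, so that run checks the code only and says nothing about the gene values. Alternatives are given in the closing section. Python 3.11.15, numpy 2.4.6, pandas 2.3.3 and matplotlib 3.10.9 were used.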

Additional observations from a re-analysis of the deposited data

Results flagged for a closer look

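1 of the 2 features of SLC25A43 lay at 1.26 at 2 h and at −2.80 at 6 h, at least 2-fold on opposite sides of vehicle in different animals. The difference was not tested, and the other feature lay at −0.51 and −0.32. The antisense transcript SLC25A5-AS1, which the choice of members leaves out, had a single feature, with 1.15 after 2 h and then 0.12, −0.71 and −0.27. Groups held 1 array each, so no array could be set against others of its group.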

How the results depend on the processing

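No paired analysis was possible because each time had 1 array and the labels carry no replicate numbers. Medians of the family, of its groups and of the comparison lists moved by less than the median SD between features under every alternative run. That SD, 0.27 to 0.45 over all genes, is a wide limit for medians near 0. No value at least 2-fold from vehicle changed sign under another centring, the mean over features, scaling or zeros taken as not measured. These settings could hardly change one. Scaling cannot turn a sign, and centring moved values by far less than 2-fold. Of the 14 members concerned 12 had 1 feature, which the mean and dropped zeros leave as it is. Counts of members were small and moved. With all arrays scaled to the same median absolute deviation, the median of their own, 1 was higher and 2 lower at 2 h (from 4 and 5) and 2 higher at 1 day. Between arrays, 2 were then higher at 6 h than at 2 h, 2 lower at 14 days than at 1 day, and 2 higher and 0 lower at 14 days than at 2 h. At 1.5-fold, 10 were lower at 2 h, 2 lower at 6 h, 3 higher at 1 day, and 4 higher and 1 lower at 14 days. At 3-fold, 1 was higher and 2 lower at 2 h, 0 higher and 0 lower at 6 h, 0 higher and 1 lower at 1 day, and 0 higher at 14 days. With 2 or more features required to pass, all counts were 0. Read as log2 ratios, the values gave 0 at every time except 1 lower at 1 day. With exact zeros taken as not measured, 1 was lower at 1 day than at 6 h, and 2 were higher and 1 lower at 14 days than at 1 day. The 1 lower at 14 days, SLC25A25, compares unlike sets of features. The causes were not tested beyond what each setting does by construction.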
